A study of Mus musculus with 9 samples.

Results

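Alpl, Parm1, Cpne8, Timd2 and Lmo7 are 5 of the 46517 genes in the deposited table of spleens and lymph nodes from aged mice. They were chosen by their values: in each of them every plckGAPDH spleen lay above every wild-type spleen. The choice used that contrast, so the difference between the spleens is described here without a test. There were 4 spleens of plckGAPDH mice, 2 lymph nodes of plckGAPDH mice (animals 455 and 508) and 3 spleens of wild-type (WT) mice (numbers 1, 4 and 5). All mice were C57BL/6 and older than 18 months. The plckGAPDH mice carry a Gapdh transgene driven by the Lck promoter, which is active in cells of the T lineage, and the labels call them tumour developing. The RNA was total RNA of splenocytes, and its level is given as FPKM, a count of fragments scaled by gene length and library size. No WT lymph node was analysed. The labels number the plckGAPDH spleens 331, 343, 508 and 547, and animal 508 gave tissue of both kinds. Values of 1 plckGAPDH spleen stand under a heading with no number, and whether they are those of spleen 331 was not settled, so it is called the unnumbered spleen. The SD measures the spread between these libraries, which may be partly technical. The SE comes from the limma fit below, which draws the variance of each gene toward a trend over all genes tested.

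The proteins of these genes are of unrelated families. Alpl encodes tissue-nonspecific alkaline phosphatase, an enzyme anchored on the outer face of the cell membrane that cleaves pyrophosphate, pyridoxal phosphate and nucleotides, and is best known from bone mineralisation. Timd2 encodes TIM-2, a membrane receptor with an immunoglobulin and a mucin domain, which in mice binds H-ferritin and semaphorin 4A and belongs to the TIM family of immune regulators. Parm1 encodes a mucin-like membrane glycoprotein, Cpne8 a copine, a protein that binds membrane phospholipids in the presence of calcium, and Lmo7 a LIM domain protein that binds afadin and alpha-actinin at cell junctions.

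The starts of the genes differ in sequence as well. The promoter windows of 3 of them are shown because they span the range from CG-rich to CG-poor. They are RefSeq sequences of GRCm38 (the build of mm10), from 250 bases before to 50 bases after the start, with CG dinucleotides in capitals. The window of Alpl lies at chr4:137796335-137796634 (minus strand), that of Cpne8 at chr15:90679339-90679638 (minus strand) and that of Timd2 at chr11:46707055-46707354 (minus strand).
Alpl: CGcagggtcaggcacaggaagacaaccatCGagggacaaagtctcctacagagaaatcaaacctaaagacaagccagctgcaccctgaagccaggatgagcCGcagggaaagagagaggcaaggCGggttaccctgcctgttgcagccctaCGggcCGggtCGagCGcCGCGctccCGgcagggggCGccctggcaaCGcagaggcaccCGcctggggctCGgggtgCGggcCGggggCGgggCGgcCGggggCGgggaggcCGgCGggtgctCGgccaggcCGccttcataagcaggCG
Cpne8: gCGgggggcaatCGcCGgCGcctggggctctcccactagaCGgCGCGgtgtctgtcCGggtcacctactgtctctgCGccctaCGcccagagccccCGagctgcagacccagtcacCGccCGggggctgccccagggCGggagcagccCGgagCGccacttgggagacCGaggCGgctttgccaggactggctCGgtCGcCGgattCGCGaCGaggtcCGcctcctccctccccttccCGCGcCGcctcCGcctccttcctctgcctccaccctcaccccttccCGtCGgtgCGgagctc
Timd2: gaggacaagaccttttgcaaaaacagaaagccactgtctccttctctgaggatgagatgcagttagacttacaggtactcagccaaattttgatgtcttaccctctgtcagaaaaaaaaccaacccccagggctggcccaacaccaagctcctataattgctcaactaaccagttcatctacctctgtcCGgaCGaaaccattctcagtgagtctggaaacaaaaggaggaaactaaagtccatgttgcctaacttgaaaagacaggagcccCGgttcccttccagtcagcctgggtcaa
Cpne8 held 32 CG dinucleotides at 73.7% G and C, Alpl 26 at 70.0%, and Timd2 3 at 47.0%. The windows of Lmo7 and Parm1, at their outer start, held 22 and 16. Over the 32851 promoter windows of this length the median was 7, with quartiles of 3 and 20. The letters GGGCGG, searched on both strands, occurred 3 times in Alpl, 2 times in Cpne8, 3 times in Lmo7 and not in the windows of Parm1 and Timd2, while 35.7% of all windows held them. RefSeq lists a second start for Alpl, Timd2 and Lmo7, whose windows held 4, 3 and 8 CG dinucleotides and no GGGCGG. The deposited values are per gene, so starts were not told apart.

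Estimated depth was 24000000 to 34600000 fragments per library. WT spleen 5 stood apart from the other libraries: its Xist level was 0.09 FPKM, where all others lay at 31.15 to 59.71 FPKM, and Eif2s3y, a gene of the Y chromosome, was at 30.49 FPKM there and listed at 0 elsewhere. Its erythroid markers summed to 45269 FPKM, against 1.60 and 44.3 in the other WT spleens. Gapdh, the gene of the transgene, lay at 430 to 894 FPKM in plckGAPDH spleens, at 312 and 554 in plckGAPDH lymph nodes and at 299 to 348 in WT spleens.

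Every gene of the set was several times higher in plckGAPDH spleens. The ratio of the group means was 15.7 for Alpl, 17.4 for Parm1, 10.2 for Timd2, 6.72 for Cpne8 and 6.07 for Lmo7. The narrowest gap between the groups was that of Cpne8, whose lowest plckGAPDH spleen lay 2.27 times above its highest WT spleen, and the widest that of Parm1, at 5.46 times. Among the 12607 genes with at least 1 FPKM in 3 spleens, 427 (3.39%) had every plckGAPDH spleen above every WT spleen, and the 5 genes are among them by choice. In a limma fit of log2(FPKM + 1) over these genes, 26 were higher (0.206%) and 155 lower (1.23%) at a false discovery rate (FDR) under 0.05. With receptor segments left out of the fit, 0 of 12364 genes were called. The shares called that are given below are those of the fit with receptor segments. The largest fold change among genes whose spleens overlapped belonged to the small nucleolar RNA gene Rnu3a. It reached 350.59 FPKM in a plckGAPDH spleen and was listed at 0 in the lowest plckGAPDH spleen and in all WT spleens, so no fold is given. In bulk tissue, fewer cells of a type and less RNA per cell cannot be told apart.

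**Figure D1:**
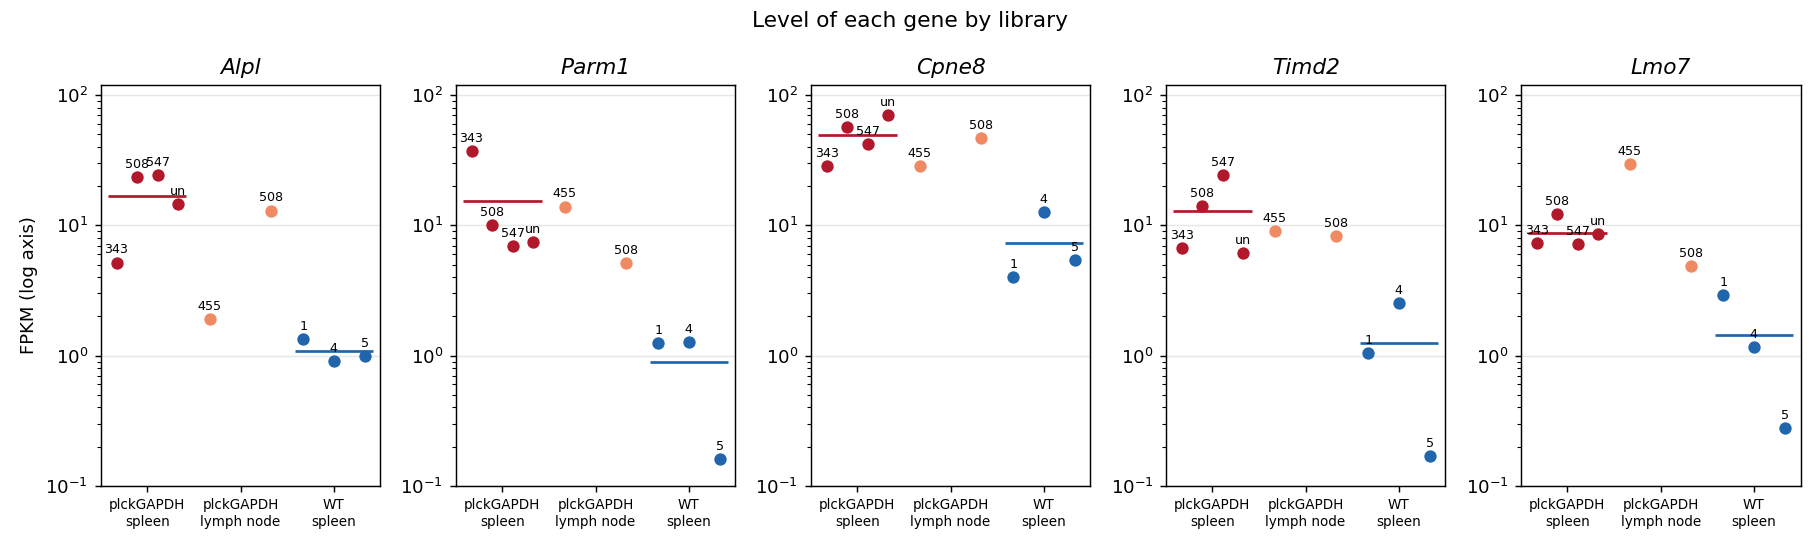
FPKM of Alpl, Parm1, Cpne8, Timd2 and Lmo7 in each library (points, log axis) by group, with the animal or mouse number beside each point ("un" is the unnumbered spleen) and a line at the mean of the spleens of each genotype. All plckGAPDH spleens lie above the WT spleens of the same gene. In FPKM as deposited the highest plckGAPDH spleen is 547 for Alpl and Timd2, 343 for Parm1, the unnumbered one for Cpne8 and 508 for Lmo7, an order that changes with scaling.

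Alpl, the phosphatase (ENSMUSG00000028766, chromosome 4, 137741733 to 137796384, minus strand, positions are of GRCm38 from GENCODE M21), had the tightest WT values of the set. It was at 5.19, 23.51, 24.47 and 14.50 FPKM in plckGAPDH spleens 343, 508, 547 and the unnumbered one, against 1.33, 0.91 and 0.99 FPKM in WT spleens 1, 4 and 5. Spleen 343 was the lowest of the plckGAPDH spleens, and the highest was 4.71 times as high as the lowest. plckGAPDH spleens averaged 16.9 ± 9.02 FPKM (SD, n = 4) and WT spleens 1.08 ± 0.223 FPKM (SD, n = 3), a log2 fold change of 2.92 (SE 0.48). The WT values correspond to at most 58 to 81 fragments, reckoned with the longest annotated transcript. Neutrophil markers also differed between the libraries. Their 7 genes summed to 574, 1347, 1156 and 851 FPKM in plckGAPDH spleens 343, 508, 547 and the unnumbered one, to 42.5 and 54.8 FPKM in plckGAPDH lymph nodes 455 and 508, and to 3370, 4.70 and 551 FPKM in WT spleens 1, 4 and 5. The WT spleens had the same order in this sum and in Alpl, though their Alpl values lay close together. Over all 9 libraries the orders differed: WT spleen 1 had the highest sum, while its Alpl was below that of both lymph nodes. All 7 fold changes were positive, with a median of 2.05, as were those of 6456 of the 12607 genes tested. Of the 7, 0 were called, where 0.206% of all genes tested were called higher. WT spleen 4 was the lowest spleen in each of these genes, while the sum of WT spleen 1 was above that of every plckGAPDH spleen. The part of neutrophils in the level of Alpl was not tested. Among genes of bone and stroma, Runx2, an osteoblast transcription factor that is also made by other cells, carried most of the sum, at 3.25, 0.33, 4.22 and 6.98 FPKM in plckGAPDH spleens 343, 508, 547 and the unnumbered one and at 3.31, 6.98 and 3.04 FPKM in WT spleens 1, 4 and 5. The osteoblast genes Sp7 and Bglap were listed at 0 or at most 0.01 FPKM in plckGAPDH spleens and at 0.14 or less in WT spleens, and the whole list of 6 summed to 0.700 to 7.62 FPKM in plckGAPDH spleens and to 3.66 to 7.75 FPKM in WT spleens. The other alkaline phosphatases, Alpi, Akp3 and Alppl2, lay at 0.04 FPKM or less in all 9 libraries.

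Parm1, the mucin-like glycoprotein (ENSMUSG00000034981, chromosome 5, 91517615 to 91626894, plus strand), was highest in the spleen in which Alpl was lowest. It was at 37.55, 10.14, 6.99 and 7.41 FPKM in plckGAPDH spleens 343, 508, 547 and the unnumbered one, against 1.24, 1.28 and 0.16 FPKM in WT spleens 1, 4 and 5. The other plckGAPDH spleens lay close together, and the mean of 15.5 ± 14.8 FPKM (SD, n = 4) leaned on spleen 343. WT spleens averaged 0.893 ± 0.635 FPKM (SD, n = 3). The log2 fold change was 2.85 (SE 0.54). The ratio of means was 9.16 without spleen 343. The value of WT spleen 5 corresponds to about 20 fragments of the single annotated transcript.

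Cpne8, the copine (ENSMUSG00000052560, chromosome 15, 90487482 to 90679432, minus strand), was the most abundant gene of the set in every library but 2, plckGAPDH spleen 343 and plckGAPDH lymph node 455. It was at 28.79, 56.57, 42.12 and 70.32 FPKM in plckGAPDH spleens 343, 508, 547 and the unnumbered one, against 4.00, 12.66 and 5.42 FPKM in WT spleens 1, 4 and 5. WT spleen 4 was the highest of the WT spleens. plckGAPDH spleens averaged 49.4 ± 18.0 FPKM (SD, n = 4) and WT spleens 7.36 ± 4.64 FPKM (SD, n = 3), a log2 fold change of 2.66 (SE 0.47). With 1 spleen left out, the ratio of means ran from 5.47 (without WT spleen 1) to 10.5 (without WT spleen 4).

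Timd2, the TIM-2 receptor (ENSMUSG00000040413, chromosome 11, 46668960 to 46707061, minus strand), was spread widely in both genotypes. It was at 6.73, 14.03, 24.49 and 6.15 FPKM in plckGAPDH spleens 343, 508, 547 and the unnumbered one, against 1.05, 2.55 and 0.17 FPKM in WT spleens 1, 4 and 5. Spleen 547 was the highest, as it was for Alpl, but after median-of-ratios scaling spleen 508 was the highest for both (19.4 against 18 in spleen 547 for Timd2, and 32.4 against 17.9 for Alpl). plckGAPDH spleens averaged 12.8 ± 8.55 FPKM (SD, n = 4) and WT spleens 1.26 ± 1.20 FPKM (SD, n = 3), a log2 fold change of 2.56 (SE 0.52). With 1 spleen left out, the ratio of means ran from 7.14 (without WT spleen 5 or plckGAPDH spleen 547) to 21.1 (without WT spleen 4). The value of WT spleen 5 rests on at most 12 fragments.

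Lmo7, the LIM domain protein (ENSMUSG00000033060, chromosome 14, 101729957 to 101934710, plus strand), was even among plckGAPDH spleens in FPKM as deposited and uneven in WT spleens. It was at 7.27, 12.20, 7.25 and 8.58 FPKM in plckGAPDH spleens 343, 508, 547 and the unnumbered one, against 2.92, 1.16 and 0.28 FPKM in WT spleens 1, 4 and 5. The highest plckGAPDH spleen was 1.68 times the lowest, while the highest WT spleen was 10.4 times the lowest. plckGAPDH spleens averaged 8.82 ± 2.33 FPKM (SD, n = 4) and WT spleens 1.45 ± 1.34 FPKM (SD, n = 3), a log2 fold change of 2.12 (SE 0.42). With 1 spleen left out, the ratio of means ran from 4.33 (without WT spleen 5) to 12.3 (without WT spleen 1). Lmo7 is known from epithelia, and the 5 epithelial markers summed to 0.920 to 6.26 FPKM in plckGAPDH spleens and to 2.33 to 3.53 FPKM in WT spleens.

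WT spleen 5, the library that stood apart, was the lowest WT value of Parm1, Timd2 and Lmo7 but not of Alpl and Cpne8. No gene of the set rested on it for the gap between the genotypes, since the highest WT value was that of spleen 1 or 4 in each. After median-of-ratios scaling of the libraries, every plckGAPDH spleen was still above every WT spleen in all 5 genes, with the narrowest gap at 1.45 times, for Timd2. With scaling to the FPKM outside mitochondrial, ribosomal RNA, globin and receptor genes the narrowest gap was 1.35 times, again for Timd2. The order among the plckGAPDH spleens did depend on scaling. After median-of-ratios scaling spleen 508 was the highest for Alpl, Cpne8, Timd2 and Lmo7, and spleen 343 for Parm1.

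The lymph nodes were not used in the choice, and they have no WT counterpart. In both lymph nodes all 5 genes lay above the highest WT spleen, 10 of 10 values, while 562 of the 12607 genes (4.46%) had both lymph nodes above every WT spleen. The comparison shares the WT spleens with the choice of the genes and sets lymph node against spleen, so tissue and genotype cannot be told apart in it. Alpl was at 1.92 and 13.02 FPKM in lymph nodes 455 and 508, and in node 455 only 1.44 times the highest WT spleen. Lmo7 was at 29.75 and 4.85 FPKM, so node 455 held the highest Lmo7 of all 9 libraries. Parm1 was at 13.97 and 5.13 FPKM, Cpne8 at 28.52 and 47.12 FPKM, and Timd2 at 8.99 and 8.23 FPKM. The 2 nodes differed from each other in opposite ways for Alpl and Cpne8 on one side, higher in node 508, and for Parm1 and Lmo7 on the other, higher in node 455, while Timd2 was nearly even.

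In animal 508, the FPKM of the lymph node were below those of the spleen in all 5 genes. The ratio of node to spleen was 0.833 for Cpne8, 0.587 for Timd2, 0.554 for Alpl, 0.506 for Parm1 and 0.398 for Lmo7, and 0.618 for Gapdh. The median-of-ratios factor was 0.503 in that node and 0.725 in the spleen of the same animal. After that scaling Cpne8 turned round, with 93.7 in the node and 78 in the spleen, while the other 4 genes stayed lower in the node. The order of lymph nodes and WT spleens depended on the scaling. With scaling to the FPKM outside mitochondrial, ribosomal RNA, globin and receptor genes, the lower lymph node lay at 0.955 (Cpne8), 0.828 (Timd2) and 0.754 (Lmo7) times the highest WT spleen. Alpl and Parm1 stayed above it, at 1.47 and 1.03 times.

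Levels of the 5 genes ran together over the 9 libraries, but less so once the group means were taken out. Pearson's r of log2(FPKM + 1) between 2 genes of the set ran from 0.49 (Alpl and Lmo7) to 0.86 (Cpne8 and Timd2), with a median of 0.75 over the 10 pairs. Without the group means, the median over the pairs was 0.04 and 5 of the 10 pairs were negative. Alpl and Parm1 went most strongly in opposite directions within groups, at -0.82, and Alpl and Cpne8 were most alike, at 0.46. The choice of the genes fixes part of the first set of values, and libraries of animal 508 are not independent, so these are descriptions.

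**Figure D2:**
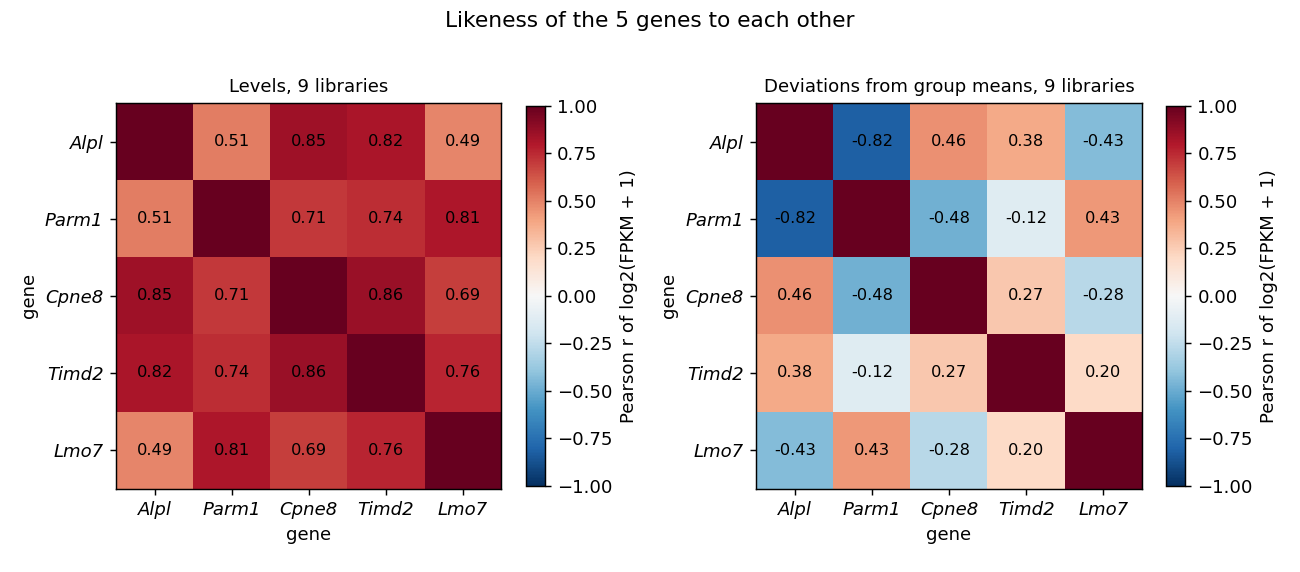
Pearson's r of log2(FPKM + 1) between the 5 genes over 9 libraries, of the levels (left) and of the deviations from the means of the 3 groups (right), from -1 (blue) to 1 (red). The levels give values of 0.49 to 0.86, while the deviations run from -0.82 to 0.46.

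For each gene, the 3 genes with the most similar levels over the 9 libraries were looked up among 12834 genes with 1 FPKM in 3 libraries. All 15 had every plckGAPDH spleen above every WT spleen, as 3.39% of all genes tested between the spleens did. Likeness to genes chosen for that separation, over the same libraries, largely fixes this count, so nothing is read from it. Alpl was followed most closely by Ccrn4l, which encodes nocturnin, a phosphatase with a daily rhythm in many tissues, at r = 0.959 (0.84 within groups). Ccrn4l was at 49.12, 87.64, 120.97 and 106.19 FPKM in plckGAPDH spleens 343, 508, 547 and the unnumbered one and at 27.06, 30.03 and 27.55 FPKM in WT spleens 1, 4 and 5. Next to Alpl came the small RNA Gm22767 (0.943) and the antisense gene Gm29084 (0.935). Parm1 was closest to Slc2a6, a hexose transporter, at r = 0.938 (0.81 within groups), which was also highest in spleen 343, at 19.07 FPKM. Itm2c (0.912) and Ache, the acetylcholinesterase (0.904), followed.

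Cpne8 had the closest partners of the set, and they were short unclassified transcripts of other chromosomes. RP24-448C16.5, on chromosome 5, reached r = 0.992 (0.96 within groups), with 71.80, 170.60, 144.92 and 226.78 FPKM in plckGAPDH spleens 343, 508, 547 and the unnumbered one and 13.76, 31.92 and 14.48 FPKM in WT spleens 1, 4 and 5. Gm37758 (0.975) and Gm37917 (0.954), both on chromosome 9, followed, and the annotation gives all 3 the provisional class TEC. Cpne8 lies on chromosome 15, so none of them overlaps it. Timd2 was closest to the antisense gene RP23-5D6.6 (0.928), to Farp2 (0.917) and to Sapcd2, which acts in spindle orientation (0.912). Sapcd2 was highest in spleen 547, at 8.69 FPKM. Lmo7 was closest to the transcription factor gene Nfil3 (0.911), to Aars, an alanyl-tRNA synthetase (0.903), and to Ccdc88a, the actin-binding protein girdin (0.894). Nfil3 shared with Lmo7 its highest value in lymph node 455, at 13.81 FPKM. Within groups, r of the 15 genes with their partner ran from 0.57 to 0.96. The 15 genes were picked by r over the same libraries, which fixes part of these values too, so they are descriptions.

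Lists of relatives and partners of the 5 genes held no called gene between the spleens. Of 38 genes of these lists that were tested, limma called 0 higher and 0 lower, which does not stand apart from the 1.44% called over all genes. Their median log2 fold change was -0.11, against 0.02 over all 12607 genes.

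**Figure D3:**
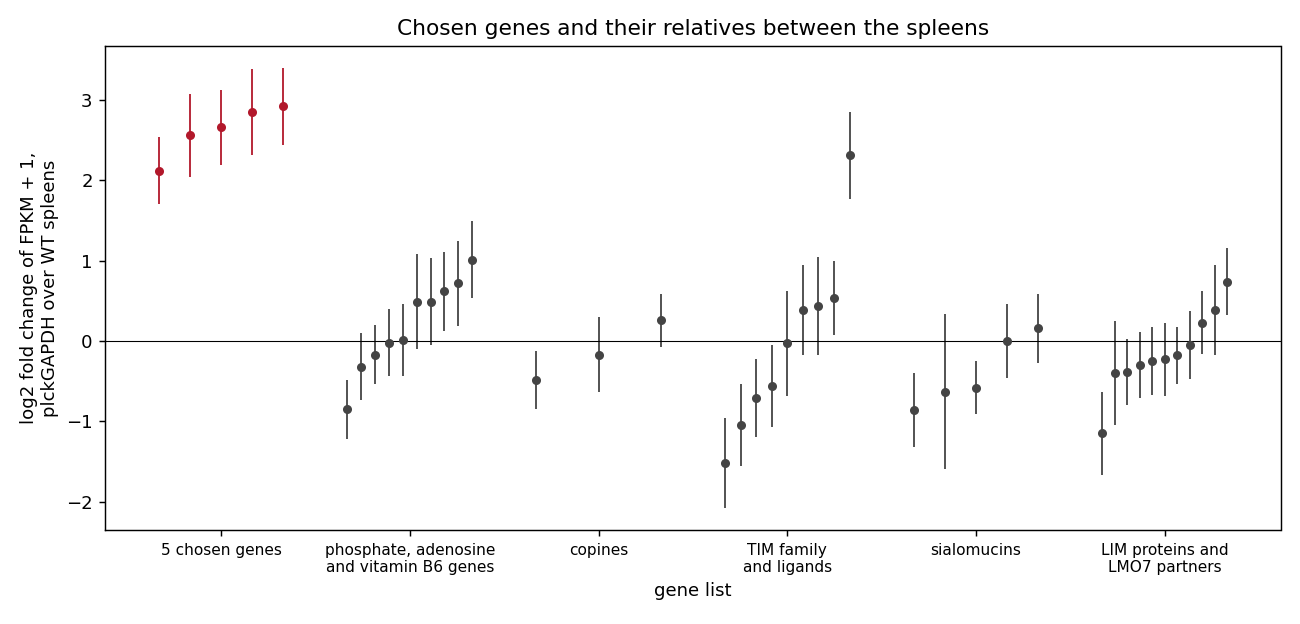
Log2 fold change of FPKM + 1, plckGAPDH over WT spleens, for the 5 chosen genes (red) and for the tested genes of 5 lists of relatives and partners (grey), with bars of 1 standard error from limma. The chosen genes lie between 2.12 and 2.92, and among the relatives only Havcr1, at 2.31, lies in that range.

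Of the 38 relatives tested, 1 had every plckGAPDH spleen above every WT spleen, which does not stand apart from the 3.39% over all genes. This relative was Havcr1 of the TIM family, the gene of TIM-1, a phosphatidylserine receptor and costimulator of lymphocytes. It was at 57.06, 13.49, 27.96 and 22.29 FPKM in plckGAPDH spleens 343, 508, 547 and the unnumbered one, against 6.31, 7.53 and 1.70 FPKM in WT spleens 1, 4 and 5. The groups did not overlap, and the log2 fold change was 2.31 (SE 0.54), but the limma FDR was 0.0641. It was 0.0421 without plckGAPDH spleen 508 and 0.00381 with sample quality weights, and over the 16 alternatives it ran up to 0.425, the value without WT spleen 5. In the lymph nodes Havcr1 was at 16.06 and 6.82 FPKM (455 and 508), the second of which lies within the WT range. Havcr1 is also the nearest tested protein-coding gene to the 5′ end of Timd2: Timd2 lies at chromosome 11, 46668960 to 46707061 on the minus strand, and Havcr1 at 46735080 to 46779578 on the plus strand, so the genes point away from each other with 28.0 kb between them.

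The other TIM genes of that stretch differed in pattern. Havcr2, the gene of the checkpoint receptor TIM-3, averaged 6.57 FPKM in plckGAPDH spleens and 6.52 FPKM in WT spleens. Its log2 fold change was -0.03 (limma FDR 0.997) but 1.63 with sample quality weights (limma FDR 0.0239). Timd4, a receptor of macrophages for dying cells, averaged 0.842 FPKM in plckGAPDH spleens and 2.07 FPKM in WT spleens. Of the ligands of TIM proteins, Sema4a averaged 8.69 ± 4.52 FPKM (SD, n = 4) in plckGAPDH spleens and 16.6 ± 2.89 FPKM (SD, n = 3) in WT spleens, without overlap (log2 fold change -1.05, limma FDR 0.622), as 3.88% of all genes tested did in that direction. Fth1, the H-ferritin bound by TIM-2, averaged 168 ± 66.2 FPKM (SD, n = 4) in plckGAPDH spleens and 270 ± 92.8 FPKM (SD, n = 3) in WT spleens, and Lgals9, the TIM-3 ligand galectin-9, was at -1.52 (limma FDR 0.381). Of the 9 genes of the list, 4 had positive fold changes and the median was -0.03.

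**Figure D4:**
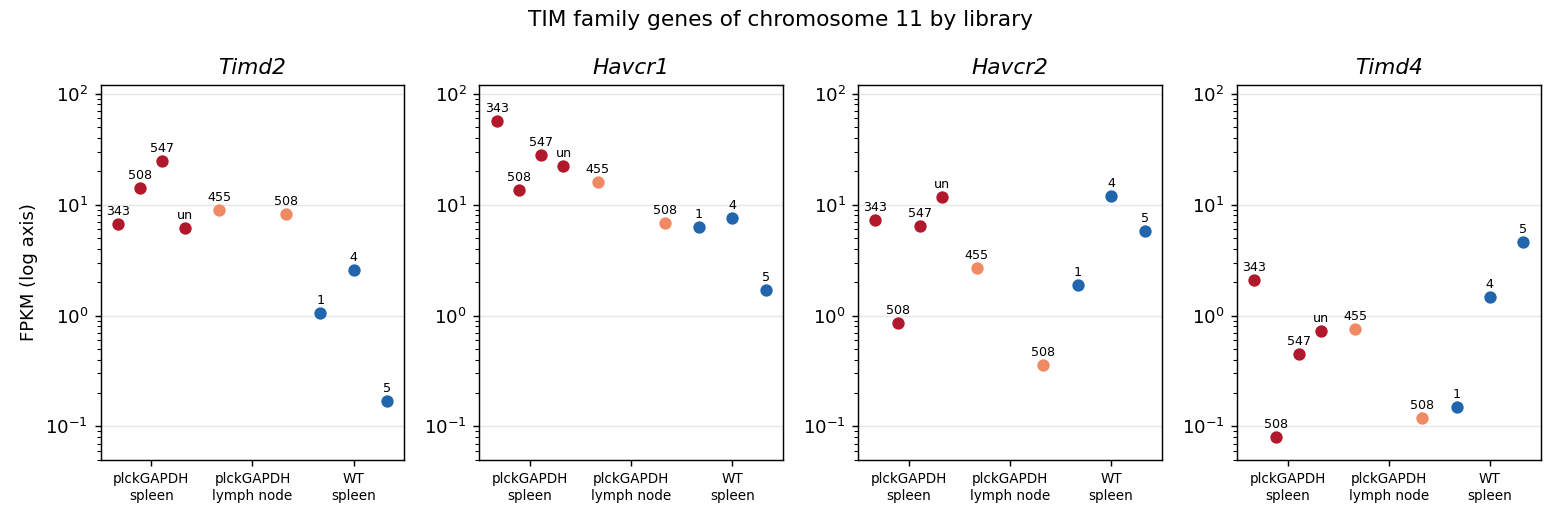
FPKM of the TIM family genes of chromosome 11 in each library (points, log axis) by group, with the animal or mouse number beside each point ("un" is the unnumbered spleen). Timd2 and Havcr1 lie higher in all plckGAPDH spleens than in all WT spleens, while Havcr2 and Timd4 overlap.

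Genes that act beside alkaline phosphatase on pyrophosphate, phosphate, adenosine and vitamin B6 gave 6 positive fold changes among 10 tested, with a median of 0.25. The smallest p-values belonged to Ank, a pyrophosphate exporter, at -0.85 (limma FDR 0.524), and Slc20a2, a phosphate transporter, at 1.01 (limma FDR 0.591). Enpp1, which makes pyrophosphate, was at 3.69, 24.89, 18.12 and 8.13 FPKM in plckGAPDH spleens 343, 508, 547 and the unnumbered one and at 7, 5.59 and 6.39 FPKM in WT spleens 1, 4 and 5. It kept the order of Alpl only in part, with spleen 343 lowest in both, and was chosen after its values were seen.

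Of the 8 other copines, 3 were tested and 0 were called, too few to be set against the 1.44% called over all genes. Cpne3 was at -0.49 (limma FDR 0.853) and Cpne2 at 0.26 (limma FDR 0.961). Cpne1 averaged 12.3 FPKM in plckGAPDH spleens and 14.8 in WT spleens. The mean FPKM of Cpne8 was thus above that of Cpne1 in plckGAPDH spleens and below it in WT spleens. In WT spleen 4, though, Cpne8 was at 12.66 FPKM and Cpne1 at 6.98. Among 5 sialomucins tested, glycoproteins that like PARM-1 carry dense O-linked sugars, 1 fold change was positive and the median was -0.58, with Selplg, the P-selectin ligand, at -0.86 (limma FDR 0.684) and Cd34 at -0.58 (limma FDR 0.720). Among 11 LIM proteins and partners of LMO7, 3 were positive and the median was -0.23. Actn1, an alpha-actinin, was at -1.15 (limma FDR 0.550), and Lmo4, a LIM-only protein, at 0.74 (limma FDR 0.720). Mllt4, the gene of afadin, averaged 2.72 FPKM in plckGAPDH spleens and 3.20 in WT spleens.

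The nearest tested protein-coding genes on either side of each gene of the set held 0 calls among 10, which does not stand apart from the 1.44% called over all genes. Without overlap between the spleens, 1 was higher (Havcr1) and 2 were lower, against 3.39% and 3.88% of all genes tested. Rap1gap and Ece1, on the sides of Alpl at 11.9 and 65.9 kb, were at 1.03 and 0.63 with overlapping groups (limma FDR 0.677 and 0.878). Lrrk2, 994 kb from Cpne8, went the other way, at 7.20 FPKM in plckGAPDH spleens and 30.8 in WT spleens without overlap (log2 fold change -2.14, limma FDR 0.106). Mthfd2l, 496 kb from Parm1, was also lower without overlap, at -0.67 (limma FDR 0.546).

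Over the 16 lists of markers of cell types and of dividing cells, limma called 1 gene. It was Cr2, a complement receptor of follicular dendritic cells and mature B cells, at 0.69, 0.14, 0.14 and 1.28 FPKM in plckGAPDH spleens 343, 508, 547 and the unnumbered one, against 154.6, 11.01 and 146.0 FPKM in WT spleens 1, 4 and 5 (log2 fold change -5.44, limma FDR 0.00169), where 1.23% of all genes tested were called lower. A single call over these lists does not stand apart from that share. With receptor segments left out, limma called 0 genes, and so not Cr2. The list of follicular dendritic and reticular cells that holds Cr2 summed to 1.17 to 11.8 FPKM in plckGAPDH spleens and to 13.2 to 156 FPKM in WT spleens. Cr2 made most of the sum in WT spleens. Of the 3 genes of that list that were tested, the other 2, Cxcl13 and Ccl19, had positive fold changes. Ccl19 was at 5.09, 0.73, 2.23 and 2.61 FPKM in the plckGAPDH spleens and at 1.05, 0.94 and 0.94 FPKM in the WT spleens, in the same order. The 8 cell cycle genes summed to 99.8, 171, 615 and 357 FPKM in plckGAPDH spleens 343, 508, 547 and the unnumbered one, to 167 and 88.6 FPKM in lymph nodes 455 and 508, and to 66.9, 94.8 and 53.1 FPKM in WT spleens 1, 4 and 5. All 8 had positive fold changes, 3 were higher without overlap and 0 were called, where 3.39% of all genes tested were higher without overlap and 0.206% were called higher. Spleen 547 was highest in this sum and, in unscaled FPKM, in Alpl and Timd2, and spleen 343, highest in Parm1, was lowest of the plckGAPDH spleens in it. Germinal centre B cell genes summed to 70.0 to 90.4 FPKM in plckGAPDH spleens and 27.0 to 73.6 FPKM in WT spleens, with 4 of 7 fold changes positive. Of these 7, 0 were called and 1, Gcsam, was lower without overlap, as 3.88% of all genes tested were. Genes used for B-1 cells summed to 49.8 to 178 FPKM in plckGAPDH spleens and to 43.4 to 64.7 FPKM in WT spleens, with 1 of 5 higher without overlap (3.39% of all genes tested) and 0 called (0.206% called higher).

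Pan-B genes summed to 589 to 1180 FPKM in plckGAPDH spleens and 410 to 1779 FPKM in WT spleens, and pan-T genes to 140 to 1063 against 390 to 631 FPKM, so both lineages of the labelled tissue were present in every spleen. In the lymph nodes these sums were 371 and 457 FPKM for pan-B genes and 229 and 119 FPKM for pan-T genes (455 and 508). Plasma cell genes reached 4478 FPKM in spleen 508 and lay at 80.0 to 366 FPKM in the other plckGAPDH spleens and 227 to 347 FPKM in WT spleens. Spleen 508 was also the highest for Lmo7 in unscaled FPKM and for Alpl, Cpne8, Timd2 and Lmo7 after median-of-ratios scaling. The part of these cell types and of cell division in the levels of the 5 genes was not tested.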

How the data were processed

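RNA of 7 spleens and 2 lymph nodes was measured. The authors deposited FPKM with 2 decimals per gene and library. The submitters' processing notes name mm10, RSEM, Bowtie2 2.2.6, STAR 2.4.0a and featureCounts (Subread 1.5.0-p3), without saying which made the FPKM. The kit was stranded and took 500 ng of total RNA, read as pairs of 75 bases, per the labels' protocols.

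Depth was estimated from genes with 1 transcript in GENCODE M21, whose low FPKM step by whole fragments: 74.7% to 80.2% of values lay on steps (within 0.0055 FPKM), against 13.8% to 15.8% by chance. On 3 simulated libraries the largest error was 0.0295%.

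The limma test (3.58.1, R 4.3.3, variance trend over expression) set the 4 plckGAPDH against the 3 WT spleens on log2(FPKM + 1), for genes with 1 FPKM in 3 spleens, called at a Benjamini-Hochberg FDR under 0.05 over all genes tested. Fold changes on this scale understate low genes. On simulated data with 12607 genes, 18.5%, 77% and 94.5% of 200 genes changed by 2, 3 and 4 on the log2 scale were recovered. The 5 genes and all lists were chosen with earlier results of these data known. The text names the 3 most alike genes per member and the 2 with the smallest p per list, and others where it says so or to complete a family or a place in the genome. Alternatives were other pseudocounts, filters, scalings and weights, receptor genes left out, all 9 libraries in the fit, and each spleen left out.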

Additional observations from a re-analysis of the deposited data

Results flagged for a closer look

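Parm1 in plckGAPDH spleen 343, at 37.55 FPKM, stood far from the other plckGAPDH spleens, which held 6.99 to 10.14 FPKM. Its gap to the nearest made 0.897 of the range, past Dixon's 95% critical value for 4 samples. Among the marker lists, the summed FPKM of plasma cell markers was 4478 in plckGAPDH spleen 508 (0.935 of the range), and that of exocrine pancreas markers was 128 in plckGAPDH spleen 343 (0.964). WT spleen 1 also held 125 FPKM of the pancreas markers, and plckGAPDH lymph node 455 held the highest sum, 263 FPKM. Spleen 343 was the highest library for Parm1 and node 455 for Lmo7, while WT spleen 1 was at 1.24 and 2.92 FPKM for these genes. The part of pancreas tissue in these levels was not tested. In all, 47 groups were looked at, 3 passed, and chance passes about 1 in 20.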

How the results depend on the processing

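All 5 fold changes stayed positive under each of the 16 alternatives. Those of the 10 relatives named for the smallest p in their list kept their sign. Havcr2, named to complete its family, went from -0.03 to 1.63 with sample quality weights. The choice of the 5 genes fixed their sign under all alternatives but the scalings, so nothing is read from it there. With a pseudocount of 0.1 the log2 fold change was 3.93 for Parm1, 3.56 for Timd2 and 2.95 for Lmo7. With sample quality weights, whose estimation stopped before full convergence, it was 3.44 for Cpne8 and 1.31 for Lmo7. The count of 26 higher genes in the limma fit was 14 with a pseudocount of 0.1, 1 without a filter, 15 with 1 FPKM in 4 spleens, 11 with median-of-ratios scaling, 14 with scaling outside mitochondrial, ribosomal RNA, globin and receptor genes, and 891 with quality weights. The 155 lower genes became 73 without a filter, 101 with the stricter filter and 972 with quality weights. The scalings gave 137 and 174 lower genes, and the second moved the median of all genes to -0.18. With receptor segments left out, limma called 0 higher and 0 lower genes, with 950 at an unadjusted p under 0.05. With each spleen left out in turn, 5 to 81 genes were higher and 67 to 189 lower: 81 and 42 higher without plckGAPDH spleens 343 and 547, 7 and 5 without WT spleens 4 and 5, and 88, 83 and 67 lower without WT spleens 1, 4 and 5. Of the relatives, quality weights called 3 higher (Havcr1, Havcr2, Lmo4) and 1 lower (Cd34), and leaving out spleens gave 0 to 1 higher and 0 lower. The median r over pairs of the 5 genes was 0.04 for deviations from group means, 0.63 as Spearman's rank correlation and 0.84 in the spleens alone, and with each library left out it ran from 0.59 (without WT spleen 5) to 0.84. The cause of these shifts was not tested. No paired analysis was possible because the genotypes share no animal and the lymph nodes and spleens share only 1.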
